A study of Homo sapiens with 10 samples.

Results

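The comparison described here is the late part of a pooled CRISPR knockout screen in 22Rv1 cells that overexpress NMYC: the 2 T12 libraries (cultures 1 and 2) against the 2 T6 libraries of the same arm. These are 4 of the 10 libraries of the series, chosen by arm and time point and not by any measured value, and all sgRNAs enter, summarised by gene symbol. 22Rv1 is a human prostate carcinoma cell line, and NMYC is the protein of MYCN. Both groups carry NMYC overexpression, a lentiviral library that encodes Cas9 and sgRNAs, and puromycin selection, and they differ in time in culture. The parental 22Rv1 arm, which lacks the NMYC overexpression and carries the same library, has 2 T12 and 2 T6 libraries too, and each arm has 1 T0 library. Per the labels' protocols the multiplicity of infection was 0.3, the library coverage was kept at 300, cells were passaged every 72 hours, and duplicates were plated once selection was complete. The protocols also speak of 12 generations in culture. What drives NMYC, whether the line is a clone, and the unit of T6 and T12 are all not given in the sources used. The libraries count sgRNA cassettes in genomic DNA, so neither the level of NMYC nor markers of the prostate cell type could be checked.

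In such a screen Cas9 cuts the gene matched by the sgRNA that a cell carries, and the cassette itself serves as a barcode of that cell and its progeny. Cells that lose a gene needed for growth leave few progeny, so their barcodes become scarce, while loss of a gene that restrains growth lets barcodes accumulate. MYC proteins, NMYC among them, pair with MAX at DNA and drive ribosome production, protein synthesis and nucleotide synthesis, and in prostate cancer NMYC is known for its part in neuroendocrine disease. The series asks which knockouts harm cells that overexpress MYCN. Setting T12 against T6 addresses which barcodes were still moving late in culture, without the T0 libraries, of which there is 1 per arm.

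The T12 libraries held 13192046 and 16321172 counts, against 14944879 and 9538593 counts in the T6 libraries. The median count per listed sgRNA was 132 and 82 at T12, against 187 and 117 at T6. Of the 55849 listed sgRNAs, 8.93% and 6.85% had no count at T12, against 3.14% and 5.87% at T6. Barcodes were spread less evenly at T12, with Gini coefficients (0 where all sgRNAs are equally frequent) of 0.600 and 0.679, against 0.523 and 0.536 at T6, and the groups did not overlap. In parental cells the Gini coefficients were 0.663 and 0.645 at T12, against 0.502 and 0.701 at T6, and those groups overlapped. The single T0 libraries had 0.669 in NMYC cells and 0.711 in parental cells. In NMYC cells the T12 values thus lay on either side of T0, and both T6 libraries were more even than T0. Kept were 53040 sgRNAs that averaged 20 counts or more across the 10 libraries, 934 non-targeting controls among them, and 18197 genes with at least 2 kept sgRNAs were tested.

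No gene and no sgRNA was found lower or higher at T12 than at T6 in NMYC cells at an adjusted p of 0.05. Among sgRNAs, edgeR's quasi-likelihood test called 0 lower (0%) and 0 higher (0%), with 1507 (2.84%) and 834 (1.57%) at an unadjusted p under 0.05. Rank aggregation, which asks whether the sgRNAs of a gene stand together at an end of the ranked list, called 0 genes lower (0%) and 0 higher (0%), with 903 (4.96%) and 856 (4.7%) at an unadjusted p under 0.05. Counts summed over the sgRNAs of each gene gave 0 genes lower (0%) and 0 higher (0%) in edgeR, with 267 (1.47%) and 184 (1.01%) at an unadjusted p under 0.05. DESeq2, run as an alternative, called 321 sgRNAs lower and 131 higher, and 21 gene sums lower and 1 higher. Without the T12 library of culture 2, rank aggregation called 1 gene lower, DEFB129, a beta-defensin gene (adjusted p = 0.00285). With the 4 NMYC libraries fitted alone, 1 sgRNA was called higher, an sgRNA against DAZL (adjusted p = 0.00657). Both cultures stem from 1 infection, so p-values measure the spread that arose afterwards.

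Individual barcodes moved far, and their changes did not correlate between the cultures. The log2 change of targeting sgRNAs had an SD of 2.00 in culture 1 and 2.28 in culture 2, against 1.93 and 2.24 for the non-targeting controls, which cut no gene. The common dispersion between libraries was 1.11, and for the median sgRNA counting error gave a squared coefficient of variation of 0.00464. It is larger for sgRNAs with few counts, and 19.1% and 20.6% of the listed sgRNAs had under 10 counts at T12, against 8.68% and 14.1% at T6. Across the 53040 sgRNAs, which share the libraries and are not independent replicates, the changes in culture 1 and culture 2 had a Pearson correlation of -0.00461, and 50.1% had the same sign. Over the 18197 gene sums the correlation was -0.00142, with the same sign in 50.4%. Among sgRNAs with a mean count of at least 200 it was -0.0146 (n = 28330), so well-counted sgRNAs showed no closer likeness, and in non-targeting controls it was 0.0034 (n = 934). Levels were more alike than changes, with Pearson correlations of log2 levels of 0.402 between the T12 libraries and 0.477 between the T6 libraries. Between a T12 and a T6 library they were 0.457 and 0.427 for the same culture and 0.459 and 0.436 for different cultures. The T12 libraries were thus less like each other than like the T6 libraries, and libraries of the same culture were no closer.

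**Figure D1:**
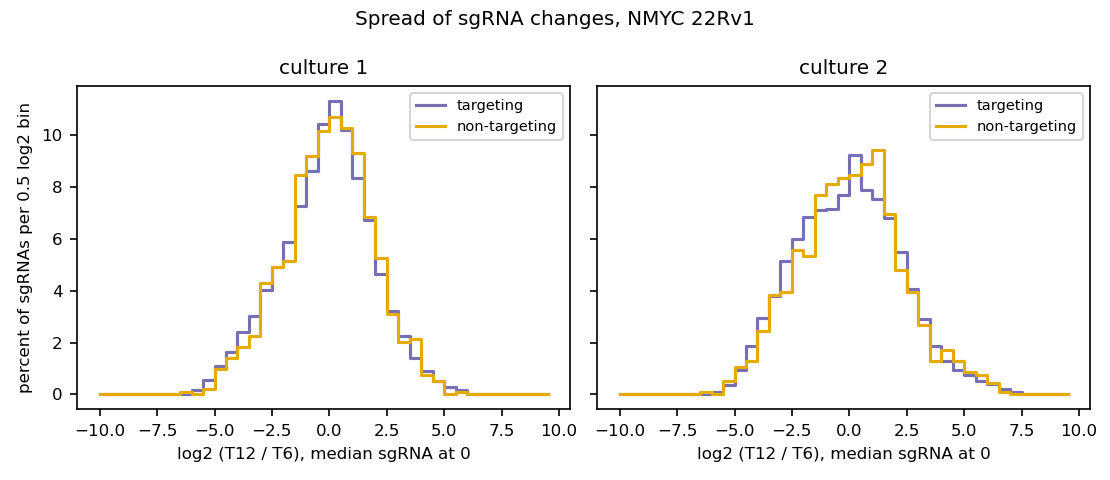
Percent of kept sgRNAs in each bin of 0.5 on the log2 scale of the change T12 over T6, with the median sgRNA at 0, in culture 1 (left) and culture 2 (right) of NMYC cells. The outlines of targeting (purple) and non-targeting (yellow) sgRNAs nearly coincide, with SDs of 2.00 and 1.93 in culture 1 and of 2.28 and 2.24 in culture 2.

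Losses that both cultures shared were rare, and they occurred among controls as well. More than a 4-fold decrease in both cultures was seen in 2134 targeting sgRNAs (4.10%), against 27 non-targeting sgRNAs (2.89%). More than a 4-fold increase in both was seen in 1308 targeting sgRNAs (2.51%), against 25 non-targeting ones (2.68%). Of the targeting sgRNAs with at least 100 counts in both T6 libraries, 242 of 24437 (0.990%) had under 10 counts in both T12 libraries, against 3 of 447 non-targeting sgRNAs (0.671%). These 242 sgRNAs belonged to 241 genes, and INO80C was the gene with 2. The opposite course, at least 100 counts in both T12 libraries and under 10 in both T6 libraries, was taken by 31 of 18248 targeting sgRNAs (0.170%), against 2 of 361 non-targeting sgRNAs (0.554%). Here ATPAF1 was the gene with 2. Of the 15248 genes with 3 kept sgRNAs, 225 (1.48%) had all of them lower in both cultures and 221 (1.45%) had all of them higher.

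Gene levels below are CPM summed over the kept sgRNAs of a gene, given for cultures 1 and 2. A gene's log2 value compares the mean level at T12 with that at T6, after adding 0.5 CPM to each, and is relative to the median gene, whose own sum was 0.34 higher at T12 on the log2 scale. No gene or sgRNA named in what follows passed an adjusted threshold in NMYC cells by the edgeR tests or rank aggregation with all libraries. Of the genes named, DESeq2 on sums called WNT5A, NVL, FOXE1, DNMBP, GNG7, RIOK1, TRPV3, RRAGA, MED7 and DTYMK lower and AADAC higher (adjusted p from 9.87e-05 to 0.0403). The smallest p that an exact permutation of 2 against 2 libraries allows is 0.333. Over all 18197 genes, 17.9% had both T12 libraries below both T6 libraries and 16.6% had both above, after each library was scaled to its median gene. Statements below that the groups of a gene overlapped or lay apart compare CPM as printed, without that scaling, unless stated. The shares over all genes were not computed for CPM as printed. Since the median gene was higher at T12, the scaled shares are no exact background for these statements.

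The gene ranked lowest was TMEM139, with 40.7 and 7.36 CPM at T12, against 45.3 and 37.3 CPM at T6 (log2 -1.11, rank aggregation adjusted p = 0.584). TMEM139 encodes a membrane protein. The levels of the times were close in culture 1 and far apart in culture 2, and the groups overlapped.

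IDI1, the isopentenyl-diphosphate isomerase of the mevalonate pathway that feeds sterol synthesis, had 7.33 and 1.51 CPM at T12, against 83.9 and 35.2 CPM at T6. The means were 4.42 ± 4.11 and 59.5 ± 34.5 CPM (SD, n = 2 each), a log2 value of -3.95 with an adjusted p of 0.660 by rank aggregation. Its T0 library held 16.1 CPM, so the T6 level exceeded both other times. The sgRNA with the lowest p of all in NMYC cells was against IDI1, with 2 and 2 counts at T12 against 1196 and 373 counts at T6 (edgeR adjusted p = 0.368), while another IDI1 sgRNA had 38 and 15 counts at T12 against 29 and 47 counts at T6. In parental cells the log2 value of IDI1 was -0.15.

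NVL, RIOK1 and SBDS, all of ribosome assembly, are placed together here by role, after their values were seen and with no test of the theme. NVL, an AAA ATPase of large subunit assembly, had 0.654 and 0.144 CPM at T12, against 17.5 and 15.2 CPM at T6 (log2 -4.57, rank aggregation adjusted p = 0.695), and all 3 of its sgRNAs had 7 counts or fewer in each T12 library. RIOK1, a kinase of small subunit maturation with 2 kept sgRNAs, had 1.05 and 0.433 CPM at T12, against 19.0 and 25.6 CPM at T6 (log2 -4.54). For both genes the T12 libraries lay far below the T6 libraries. In parental cells the log2 values were negative too, -2.73 for NVL and -0.95 for RIOK1. SBDS, which releases a maturation factor from the large subunit, was different, with 34.9 and 45.6 CPM at T12 against 41.0 and 49.7 CPM at T6 (log2 -0.51). These groups overlapped in CPM, while after scaling to the median gene both T12 libraries lay below both T6 libraries. The rank of SBDS rested on 1 sgRNA with 1 and 0 counts at T12 against 662 and 234 counts at T6, while another had 466 and 627 counts at T12 against 55 and 349 counts at T6.

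TSPAN17, a tetraspanin, had 6.93 and 2.96 CPM at T12, against 24.4 and 123 CPM at T6 (log2 -4.11). WNT5A, a secreted Wnt ligand, had 0.785 and 1.44 CPM at T12, against 21.9 and 22.4 CPM at T6 (log2 -4.15). In the T6 library of culture 2 all of the WNT5A level came from 1 sgRNA with 281 counts, since the other 2 had 0 counts there. FOXE1, a forkhead factor of thyroid development, had 1.77 and 1.80 CPM at T12, against 53.1 and 8.77 CPM at T6 (log2 -4.13). Each of these 3 genes had both T12 libraries below both T6 libraries, with rank aggregation adjusted p from 0.660 to 0.785. GRHL1, a grainyhead factor of epithelia, ranked lower although its sum was not: 61.0 and 97.9 CPM at T12, against 62.7 and 47.1 CPM at T6 (log2 0.19, changing sign under 1 of the alternatives). HIGD1B completed the first 10, with 36.2 and 26.3 CPM at T12 against 48.8 and 30.1 CPM at T6, and the groups overlapped.

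Summed counts gave the lowest p, beside TSPAN17 and RIOK1, to DNMBP, a scaffold that activates CDC42, to GNG7, a G protein gamma subunit, and to TRPV3, a cation channel of skin. DNMBP had 0.262 and 0.0721 CPM at T12, against 15.1 and 4.62 CPM at T6. GNG7 had 0.654 and 1.73 CPM at T12, against 24.6 and 24.6 CPM at T6. The TRPV3 level was 0.327 and 0.505 CPM at T12, against 18.8 and 20.3 CPM at T6. In all 3 the T12 libraries held a few counts and the T6 libraries lay below the median gene, whose mean was 37.3 CPM at T6. In parental cells the log2 values were -1.87 for DNMBP, -2.38 for TRPV3 and 1.29 for GNG7.

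INO80C, a subunit of the INO80 chromatin remodeller, was lower with all 3 sgRNAs in both cultures. Its level was 17.4 and 31.7 CPM at T12, against 58.7 and 67.8 CPM at T6, with means of 24.5 ± 10.1 and 63.3 ± 6.46 CPM (SD, n = 2 each; log2 -1.69, rank aggregation adjusted p = 0.785). Its sgRNAs had 3 and 1, 0 and 2, and 263 and 436 counts at T12, against 211 and 142, 115 and 255, and 816 and 454 counts at T6, so the last of them kept most of its counts in culture 2. RRAGA, a Rag GTPase that brings mTORC1 to lysosomes when amino acids are present, had 6.87 and 8.58 CPM at T12, against 56.0 and 50.8 CPM at T6 (log2 -3.05, rank aggregation adjusted p = 0.977). The RRAGA groups lay far apart with little spread inside each, and its log2 value in parental cells was 0.86. FAM118B (log2 -1.73), ZNF226 (log2 -1.99) and NPDC1 (log2 -2.15) were the other abundant genes chosen for a loss shared by all sgRNAs. In each both T12 libraries lay below both T6 libraries. The choice itself favours such a separation, for INO80C and RRAGA as well, so it is no separate result.

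The gene ranked highest was STX2, a syntaxin of membrane fusion, with 6.28 and 104 CPM at T12, against 6.17 and 30.6 CPM at T6 (log2 1.22, rank aggregation adjusted p = 0.992, as for each of the 10 genes ranked highest). In culture 1 the levels were nearly equal, and the log2 value was -1.55 without the T12 library of culture 2. ATPAF1, which helps to assemble the F1 part of mitochondrial ATP synthase, was higher with all 3 sgRNAs in both cultures, at 63.7 and 131 CPM at T12 against 29.9 and 24.6 CPM at T6 (log2 1.48). Its 2 gained sgRNAs had 364 and 717, and 114 and 290 counts at T12, against 6 and 8, and 0 and 0 counts at T6. In parental cells the log2 value of ATPAF1 was -1.80.

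DAZL, an RNA-binding protein of germ cells, was named by rank aggregation, by sums and by single sgRNAs. It had 98.9 and 387 CPM at T12, against 18.6 and 49.8 CPM at T6, with means of 243 ± 204 and 34.2 ± 22.1 CPM (SD, n = 2 each; log2 2.47). Both T12 libraries lay above both T6 libraries. Most of this level came from 1 sgRNA with 827 and 4071 counts at T12 against 122 and 36 counts at T6 (edgeR adjusted p = 0.368), while the third DAZL sgRNA had 430 and 21 counts at T12 against 152 and 124 counts at T6.

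PARK7, a protein that protects against oxidative stress, had 40.9 and 181 CPM at T12, against 19.5 and 24.2 CPM at T6 (log2 1.98), and its log2 value in parental cells was -3.43. C11orf24 had 43.8 and 81.9 CPM at T12, against 25.5 and 31.2 CPM at T6 (log2 0.79). IL13, a cytokine gene, had 56.6 and 126 CPM at T12, against 20.8 and 15.1 CPM at T6 (log2 1.97). All 3 had both T12 libraries above both T6 libraries. RGL3 (log2 0.87), UBXN10 (log2 1.43), AP5Z1 (log2 -0.07) and PSMB2 (log2 2.52) filled the first 10. For AP5Z1, part of an adaptor complex of endosomes, the T12 levels of 37.5 and 2.45 CPM lay on either side of the T6 levels of 20.1 and 12.7 CPM.

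Among gene sums, AADAC, a hydrolase of liver and gut, had 85.3 and 97.3 CPM at T12, against 6.89 and 6.38 CPM at T6 (log2 3.34), with means of 91.3 ± 8.44 and 6.63 ± 0.361 CPM (SD, n = 2 each). The groups of AADAC lay far apart, yet its T0 library held 286 CPM, above both later times. Its level at T12 came mainly from 1 sgRNA with 781 and 1342 counts against 67 and 72 counts at T6, while another had 409 and 5 counts at T12 against 46 and 8 counts at T6. MLST8, a subunit shared by both mTOR complexes, had 30.5 and 83.6 CPM at T12, against 2.36 and 0.638 CPM at T6 (log2 4.50). Nearly all of the MLST8 level at T12 came from 1 sgRNA with 465 and 1145 counts, against 10 and 6 counts at T6. Another MLST8 sgRNA had 0 and 1 counts at T12 against 30 and 0 counts at T6. KDELR2, a receptor that returns proteins to the endoplasmic reticulum, had 47.4 and 107 CPM at T12, against 7.35 and 1.12 CPM at T6 (log2 3.69). UBE3D, a ubiquitin ligase, had 23.3 and 202 CPM at T12, against 15.7 and 11.1 CPM at T6 (log2 2.69). MLST8 and KDELR2 were scarce at T6 in both cultures and not at T12, and for UBE3D the T12 library of culture 2 stood apart. WWC2, an adaptor of the Hippo pathway, was higher with all of its sgRNAs in both cultures, at 92.3 and 166 CPM at T12 against 31.5 and 14.8 CPM at T6 (log2 2.11). The same held for HEATR5B (log2 1.77), PLEKHG1 (log2 1.08) and CCDC102B (log2 1.31). WWC2 and these genes were chosen for a gain shared by all sgRNAs, so that gain is no separate result.

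**Figure D2:**
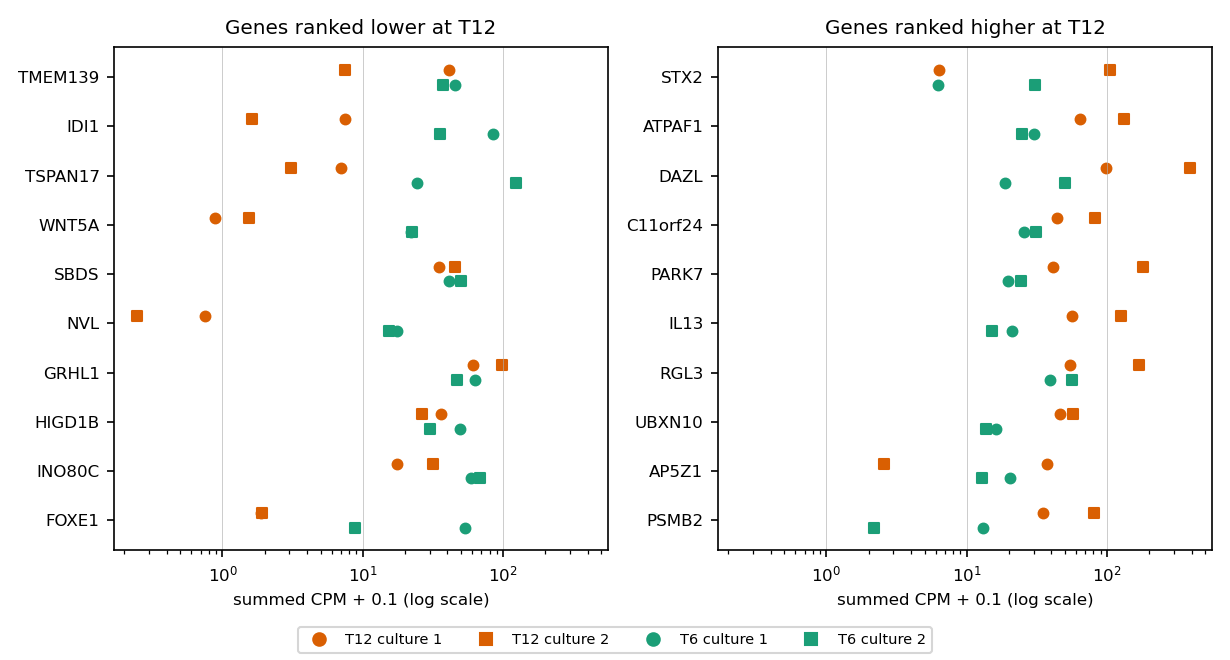
Summed CPM plus 0.1 on a log axis for the 10 genes with the smallest rank aggregation p in each direction in NMYC cells, for T12 (orange, upper row of each gene) and T6 (green, lower row), with circles for culture 1 and squares for culture 2. Genes such as NVL and WNT5A show T12 points far to the left of T6 points, while GRHL1, SBDS and AP5Z1 show groups that overlap.

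**Figure D3:**
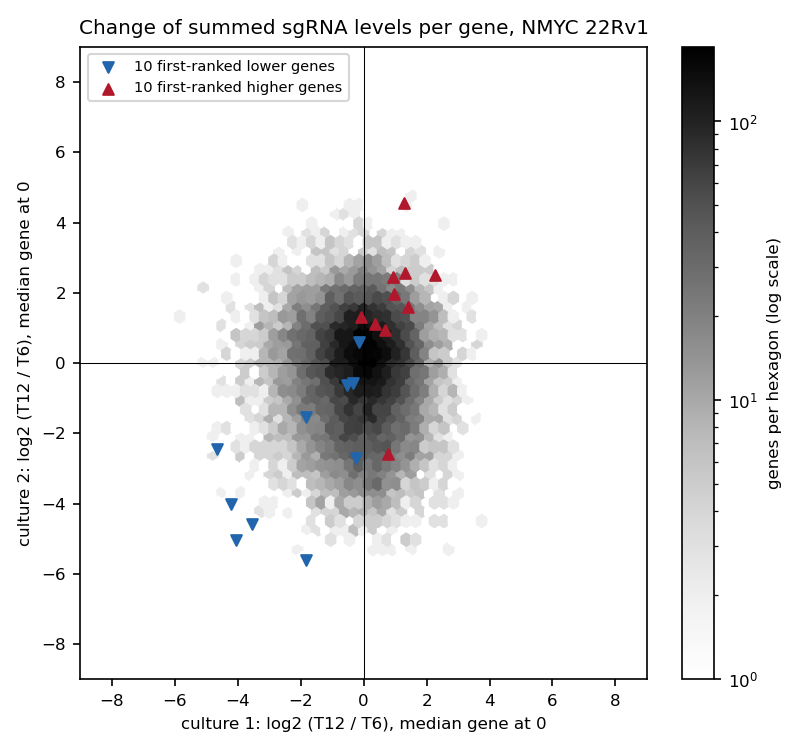
Log2 change of the summed sgRNA level, T12 over T6 with the median gene at 0, in culture 1 (horizontal) and culture 2 (vertical) for the 18197 genes, shaded by genes per hexagon on a log scale. The cloud has no slope (r = -0.00142), and the genes ranked lower (blue) and higher (red) lie mostly at its lower left and upper right, where the ranking placed them.

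The gene lists compare machinery that most cells need with families assumed, without a measurement, not to be expressed in prostate cells. These are called unexpressed families below, and some of their members may be expressed. Core genes, which pool the lists of RNA polymerase II, DNA replication, spliceosome, proteasome and cytosolic ribosome, had a median log2 value of -0.08 over 276 genes, and 150 lay below the median gene. The families assumed unexpressed had a median of 0.09 over 525 genes, with 240 below the median gene. In core genes 19 had an unadjusted rank aggregation p under 0.05 in the lower direction and 14 in the higher one, against 25 and 35 in unexpressed families and shares of 4.96% and 4.7% over all genes. None of the 16 lists held a gene past an adjusted threshold by rank aggregation or by edgeR on sums. Medians were also taken over 12 alternative settings, those that leave out 1 library included. Of these, DESeq2 and median-of-ratios factors gave identical medians, so they count as a single check. The sign held for the cytosolic ribosome, aminoacyl-tRNA synthetases, the MYC network (barely, at its lowest 0.00068), prostate luminal factors, PI3K and mTORC1, and metabolism. The single cultures differed from this for the MYC network, with medians of -0.07 in culture 1 and -0.18 in culture 2. They were -0.09 and 0.14 for PI3K and mTORC1, and -0.25 and 0.01 for metabolism. For each of the other lists the median changed sign over the settings. Neural and neuroendocrine factors, for example, ran from -0.18 to 0.46 and Polycomb and DNA methylation genes from -0.23 to 0.20.

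Aminoacyl-tRNA synthetases, which charge tRNAs with amino acids, had the lowest median of the 16 lists, a log2 value of -0.54, and 18 of 23 lay below the median gene. The list median was -0.78 in culture 1 and -0.80 in culture 2, and 0.49 in parental cells, and the NMYC value ran from -0.96 to -0.47 over the same settings. The difference of list medians between the arms was not tested. FARSA, the alpha subunit of the phenylalanine enzyme, had 25.7 and 42.0 CPM at T12, against 47.2 and 99.8 CPM at T6 (log2 -1.45), and these groups did not overlap. EPRS, the glutamate and proline enzyme, had 2.42 and 7.43 CPM at T12, against 15.01 and 24.6 CPM at T6 (log2 -2.24). RARS, the arginine enzyme, went the other way, with 42.3 and 51.4 CPM at T12 against 30.3 and 21.9 CPM at T6 (log2 0.49). In this list 2 of 23 genes had an unadjusted p under 0.05 in the lower direction and 0 in the higher one, beside 4.96% and 4.7% of all genes, so the list's count lay near that background.

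Cytosolic ribosomal protein genes had a median log2 value of -0.22, with 45 of 74 below the median gene, and list medians of -0.36 in culture 1, -0.44 in culture 2 and 0.07 in parental cells. Of these 74 genes, 10 had an unadjusted p under 0.05 in the lower direction and 2 in the higher one, beside 4.96% and 4.7% of all genes. RPL26, a protein of the large subunit, had 14.7 and 1.30 CPM at T12, against 44.7 and 43.8 CPM at T6 (log2 -2.74). RPL23, also of the large subunit, had 8.63 and 12.4 CPM at T12, against 65.0 and 39.5 CPM at T6 (log2 -2.60). In both genes the groups were well apart. RPL10A had 41.1 and 24.6 CPM at T12, against 53.7 and 50.5 CPM at T6 (log2 -0.999), whereas RPS20, of the small subunit, had 69.3 and 143 CPM at T12 against 23.9 and 29.0 CPM at T6 (log2 1.64). EPRS, RPL26, RPL23, CCNT1 and AURKB were picked for naming after their values were seen.

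The medians of the other core machines changed sign over the settings. The proteasome list had a median log2 value of 0.15 with 15 of 32 genes below the median gene, -0.07 in culture 1 and -0.12 in culture 2, and the median was -0.22 without the T6 library of culture 2. Its member PSMB2 had 34.7 and 81.1 CPM at T12, against 13.0 and 2.07 CPM at T6. The spliceosome list had a median of -0.0013 with 33 of 66 below, and in SNRNP48, a protein of the minor spliceosome, 70.0 and 4.25 CPM at T12 stood against 33.4 and 3.67 CPM at T6, so the cultures differed more than the times. In DNA replication genes, 30 of 50 lay below the median gene (list median -0.23, from -0.36 to 0.04 over the settings). MCM2, of the replicative helicase, had 13.8 and 46.6 CPM at T12, against 97.3 and 29.1 CPM at T6 (log2 -1.39), and CDC45, its partner, had 15.4 and 99.2 CPM at T12, against 16.2 and 23.6 CPM at T6 (log2 1.16). Both of these had overlapping groups. In the RNA polymerase II list (median 0.01, 27 of 54 below) MED7, a Mediator subunit, had 5.62 and 4.83 CPM at T12, against 26.6 and 40.9 CPM at T6 (log2 -2.92), and CCNT1, the cyclin of the elongation kinase, had 1.64 and 1.01 CPM at T12, against 21.0 and 20.3 CPM at T6 (log2 -3.88). Genes of mitochondrial respiration and translation had a median of -0.01 with 46 of 91 below, and MRPS12, a mitochondrial ribosomal protein, had 14.7 and 18.4 CPM at T12, against 36.3 and 33.5 CPM at T6 (log2 -1.40).

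Mitosis genes had a median log2 value of 0.18 with 31 of 69 below the median gene, and 7 and 4 of them had an unadjusted p under 0.05 in the lower and higher direction, beside 4.96% and 4.7% of all genes. KIF18A, a kinesin that aligns chromosomes, had 31.0 and 2.16 CPM at T12, against 73.1 and 42.8 CPM at T6 (log2 -2.12). MAD2L1, of the spindle checkpoint, had 76.3 and 180 CPM at T12, against 25.6 and 31.2 CPM at T6 (log2 1.81). AURKB, the kinase of the chromosomal passenger complex, had 32.2 and 56.7 CPM at T12, against 6.32 and 2.87 CPM at T6 (log2 2.80). Genes of the mitotic machinery therefore lay on both sides.

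Lists of regulators tied to NMYC, lineage and growth control followed the same scale. The MYC, MYCN and MAX network had a median log2 value of 0.14 with 11 of 27 below the median gene. In the single cultures its median was negative, -0.07 in culture 1 and -0.18 in culture 2. Neural and neuroendocrine lineage factors had 0.12 with 17 of 35 below, and FOXA2, a forkhead factor of that list, had 28.1 and 27.4 CPM at T12, against 3.55 and 0.478 CPM at T6 (log2 3.15). All of the FOXA2 level at T12 came from 1 sgRNA with 429 and 380 counts, against 14 and 1 counts at T6. Another FOXA2 sgRNA went the other way, with 0 and 0 counts at T12 against 53 and 4 counts at T6. Prostate luminal factors had 0.19 with 8 of 24 below. Polycomb and DNA methylation genes had 0.09 with 19 of 38 below, and CBX2, a chromodomain subunit of Polycomb complex 1, had 61.3 and 51.9 CPM at T12, against 2.83 and 10.5 CPM at T6 (log2 2.65). Growth-restraining genes had -0.0026 with 24 of 48 below, and SAV1, a scaffold of the Hippo kinases, had 68.1 and 82.4 CPM at T12, against 21.3 and 28.3 CPM at T6 (log2 1.24). FOXA2, CBX2 and SAV1 each had T12 levels above both T6 levels.

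Homologous recombination and Fanconi genes had a median log2 value of -0.06 with 22 of 42 below the median gene, and HUS1, of the checkpoint clamp, had 66.8 and 85.2 CPM at T12, against 12.0 and 20.6 CPM at T6 (log2 1.84). The PI3K and mTORC1 list had 0.12 with 19 of 45 below, and it held RRAGA and MLST8, both of the amino acid and growth signalling branch and at opposite ends (log2 -3.05 and 4.50). The MLST8 value rested mainly on 1 sgRNA. Metabolic genes had -0.04 with 26 of 49 below. DTYMK, the thymidylate kinase that makes a DNA precursor, had 1.64 and 2.81 CPM at T12, against 35.2 and 33.2 CPM at T6 (log2 -4.01), groups far apart, and its log2 value in parental cells was 0.57. SHMT1, of the cytosolic serine and folate pathway, had 40.7 and 162 CPM at T12, against 20.05 and 33.0 CPM at T6 (log2 1.57).

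**Figure D4:**
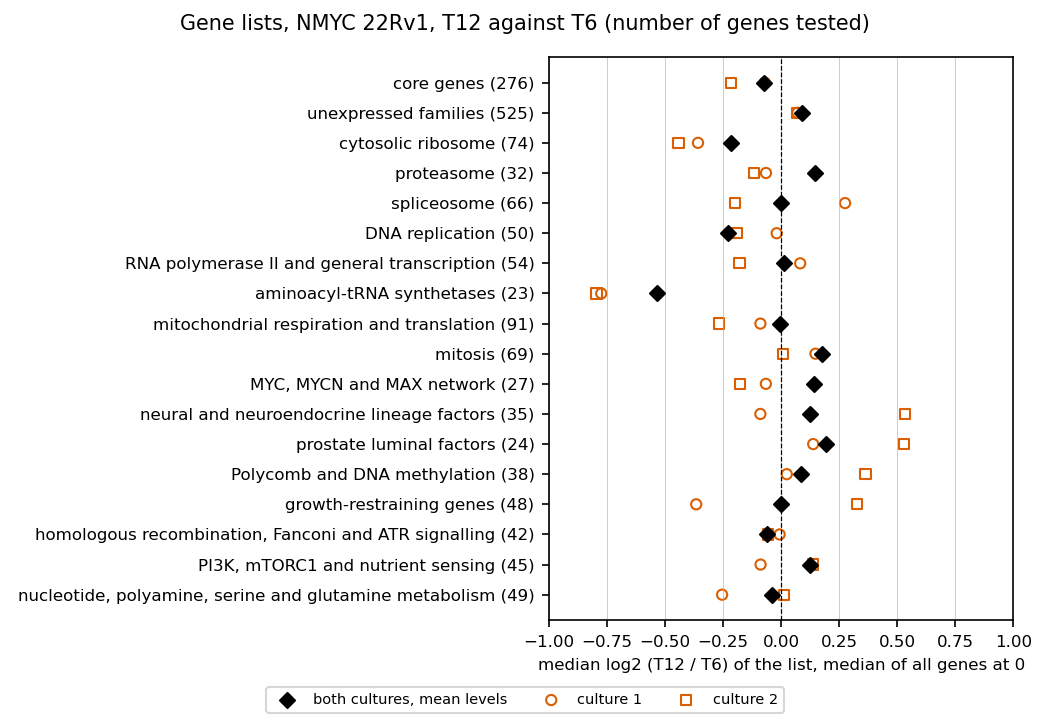
Median log2 change in NMYC cells, T12 over T6 with the median of all genes at 0. Shown are the core genes, the families assumed unexpressed and each of the 16 lists (number of genes tested in brackets). Diamonds use mean levels, circles culture 1 and squares culture 2; aminoacyl-tRNA synthetases lie lowest at -0.54, with -0.78 and -0.80 in the cultures.

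MYCN, MYC and MAX each showed no shared direction in the cultures. MYCN, the gene that is overexpressed, had 2.09 and 130 CPM at T12, against 22.5 and 17.9 CPM at T6, so its T12 libraries lay on either side of the T6 libraries, with log2 values of -3.25 in culture 1 and 2.39 in culture 2. Its 3 sgRNAs had 29 and 1097, 2 and 701, and 1 and 10 counts at T12, against 180 and 0, 244 and 176, and 14 and 49 counts at T6. Whether these sgRNAs cut the introduced NMYC copy as well as MYCN itself was not tested. MYC had 48.0 and 1.95 CPM at T12, against 10.8 and 20.7 CPM at T6, and MAX had 41.7 and 11.2 CPM at T12, against 31.5 and 25.2 CPM at T6, with overlapping groups in both.

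NEUROG2, a proneural transcription factor named in the title of the series, had 46.3 and 99.5 CPM at T12, against 38.4 and 47.5 CPM at T6 (log2 0.41, rank aggregation adjusted p = 0.995 in the higher direction). The groups overlapped, and its sgRNAs had 512 and 112, 0 and 62, and 196 and 1206 counts at T12, against 372 and 388, 179 and 52, and 196 and 156 counts at T6. In parental cells its log2 value was -1.74.

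FOXA1, a pioneer factor of luminal prostate cells, had 42.8 and 132 CPM at T12, against 14.2 and 41.5 CPM at T6 (log2 1.29). HOXB13, a prostate homeobox factor, had 40.4 and 8.65 CPM at T12, against 17.6 and 18.6 CPM at T6 (log2 0.09). The groups of FOXA1 nearly touched, and those of HOXB13 overlapped. EZH2, the methyltransferase of Polycomb complex 2, had 90.9 and 163 CPM at T12, against 69.6 and 94.6 CPM at T6 (log2 0.28). AURKA, a mitotic kinase that stabilises NMYC protein, had 64.2 and 23.6 CPM at T12, against 14.96 and 60.02 CPM at T6 (log2 -0.12). In EZH2 and AURKA alike the groups overlapped. RB1, a tumour suppressor that holds back the cell cycle, had 8.76 and 80.2 CPM at T12, against 11.9 and 14.4 CPM at T6 (log2 1.38), and its T12 libraries lay on either side of the T6 libraries.

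Parental cells served as the comparison for whether the late changes differed with NMYC. The parental comparison shares no library with the NMYC one. There too 0 sgRNAs were called lower (0%) and 0 higher (0%) by edgeR, with 2293 (4.32%) and 1123 (2.12%) at an unadjusted p under 0.05. Rank aggregation called 0 genes in either direction, with an unadjusted p under 0.05 for 892 (4.9%) in the lower and 889 (4.89%) in the higher direction, and sums called 0, with 607 (3.34%) and 393 (2.16%). Without the parental T6 library of culture 1, 2 sgRNAs were called lower, and without the parental T12 library of culture 2, 2 sums were. Across the 18197 genes the log2 values of NMYC and parental cells had a correlation of -0.00749, as a description across genes.

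The test of the difference, NMYC minus parental of the change T12 against T6, called 9 single sgRNAs by edgeR: 3 lower in NMYC cells (0.00566%) and 6 higher (0.0113%), with 1593 (3%) and 2056 (3.88%) at an unadjusted p under 0.05. With the culture as a replicate block it called 0 and 0, and with total counts in place of TMM factors 0 and 1. Leaving out either NMYC T6 library, or the parental T6 library of culture 2, it called 0 and 0. Without the NMYC T12 libraries of cultures 1 and 2 in turn it called 0 lower in both cases, with 7 and 1 higher. Without the parental T12 libraries of cultures 1 and 2 in turn it called 3 and 2 lower, with 2 and 4 higher. Without the parental T6 library of culture 1 it called 1 lower and 11 higher, a non-targeting control among the 11. The sgRNA with the smallest adjusted p was against C11orf24 (0.000898). It had 221 and 504 counts at T12 against 6 and 0 counts at T6 in NMYC cells, and 0 and 5 counts at T12 against 21 and 998 counts at T6 in parental cells. The PARK7 sgRNA (adjusted p = 0.0152) had 1 and 855 counts at T12 against 0 and 2 counts at T6 in NMYC cells, and 5 and 0 counts at T12 against 26 and 373 counts at T6 in parental cells. For PARK7 the NMYC part thus rested on the T12 library of culture 2. The lower sgRNA with the smallest adjusted p was against RBM15, a subunit of the complex that methylates adenosines in RNA (0.0161), with 0 and 0 counts at T12 against 2 and 29 counts at T6 in NMYC cells, and 253 and 134 counts at T12 against 18 and 0 counts at T6 in parental cells. The other sgRNAs were against MSC and NADSYN1 (lower) and THAP6, ANKRD33, SPANXN3 and DNAJB14 (higher).

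For genes, the difference had 0 calls by rank aggregation (1 lower, C15orf61, without the NMYC T12 library of culture 1, and 1 higher, C4orf17, without the parental T6 library of culture 2), with an unadjusted p under 0.05 for 916 (5.03%) in the lower and 903 (4.96%) in the higher direction, and 0 by sums (7 higher without the parental T12 library of culture 2), with 282 (1.55%) and 501 (2.75%). The first ranked lower genes were TNFRSF14, a receptor of lymphocytes, UBE2E3, a ubiquitin-conjugating enzyme, and MSC, a muscle-related transcription factor. TNFRSF14 had a log2 value of -0.96 in NMYC cells and 3.26 in parental cells (adjusted p of the difference 0.684), and UBE2E3 had -1.58 and 2.58. The first ranked higher genes were C4orf17, POMZP3 and ALDOA, the last an aldolase of glycolysis. C4orf17 had a log2 value of 1.22 in NMYC cells and -3.39 in parental cells, POMZP3, which shares sequence with POM121 and ZP3 so that its sgRNAs may not be specific, had 0.95 and -1.60, and ALDOA had 2.46 and -0.42 (adjusted p of the difference 0.314 for each). ALDOA had 69.5 and 94.9 CPM at T12, against 10.6 and 12.2 CPM at T6 in NMYC cells. In parental cells by themselves the first ranked were POMZP3, DNAJB14 and PDC in the lower direction and HIST1H2BI, EDA2R and NUDT22 in the higher one.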

How the data were processed

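Raw counts per sgRNA, 1 column per library and not normalized, were deposited, and every column was matched to its sample by name (0 unmapped). MAGeCK is named, without version, per the submitters' processing notes; the read trimming, mismatch setting and reference of sgRNAs were not given in the sources used here. Of 65000 sgRNAs stated in the labels, 55849 are listed, under 18686 symbols and without coordinates or sgRNA sequences, so no sequence is printed. The filter removed 2809 sgRNAs and kept 934 of 989 non-targeting ones.

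Each sgRNA was tested with edgeR 4.0.16 (R 4.3.3; TMM, quasi-likelihood, means for 6 groups of 10 libraries, 4 residual degrees of freedom), with Benjamini-Hochberg adjustment at 0.05. Groups with 1 library (T0) are assumed to have the spread of the others. Genes were tested by robust rank aggregation of signed sgRNA p (alpha at a one-sided p of 0.25, exact null) and by edgeR on summed counts, adjusted over 18197 genes, in 3 contrasts: NMYC, parental and their difference. CPM use TMM-adjusted library sizes. The scripts were tested on simulated data. PCR reads carry no molecular identifiers, so the depth of a count bears on counting error alone. Named genes are the 10 smallest rank aggregation p per direction with at least 3 sgRNAs, the 5 smallest for sums and for single sgRNAs, 5 with all sgRNAs moving alike at 50 CPM or more, the first member per list and direction, and a fixed set of regulators; not all list members, regulators or single sgRNAs are printed. The members, lists and rules were chosen with earlier results of these data known.

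Same-numbered T6 and T12 libraries were taken as the same culture from the labels' protocols; their deviations from the group means correlated at -0.00874 in NMYC cells and 0.0687 in parental cells. Alternatives were other scalings and filters, DESeq2 1.42.0, a replicate block, the 4 NMYC libraries alone, another alpha and leaving out each T6 or T12 library in turn. The T0 libraries were not left out in turn.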

Additional observations from a re-analysis of the deposited data

Results flagged for a closer look

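For 9 single sgRNAs the change T12 against T6 differed between NMYC and parental cells by the test of the difference itself (edgeR, adjusted p from 0.000898 to 0.0419). They were named after their values were seen. The fitted differences are on the log2 scale, NMYC minus parental, and because each rests on libraries with few or no counts they depend on the prior count and are no bounds. They were -11.53 for the sgRNA against RBM15, -13.02 for MSC and -12.08 for NADSYN1. The higher ones were 15.96 for C11orf24, 15.93 for PARK7, 13.72 for THAP6, 15.82 for ANKRD33, 13.07 for SPANXN3 and 12.31 for DNAJB14.

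The MSC sgRNA had 0 and 2 counts at T12 against 315 and 73 counts at T6 in NMYC cells, and 626 and 1018 counts at T12 against 6 and 10 counts at T6 in parental cells. The NADSYN1 sgRNA had 2 and 0 counts at T12 against 64 and 197 counts at T6 in NMYC cells, and 604 and 0 counts at T12 against 18 and 0 counts at T6 in parental cells. The THAP6 sgRNA had 9 and 79 counts at T12 against 2 and 0 counts at T6 in NMYC cells, and 0 and 8 counts at T12 against 164 and 953 counts at T6 in parental cells. The ANKRD33 sgRNA had 261 and 247 counts at T12 against 2 and 0 counts at T6 in NMYC cells, and 1 and 3 counts at T12 against 187 and 334 counts at T6 in parental cells. The SPANXN3 sgRNA had 76 and 651 counts at T12 against 7 and 1 counts at T6 in NMYC cells, and 5 and 1 counts at T12 against 116 and 173 counts at T6 in parental cells. The DNAJB14 sgRNA had 48 and 1139 counts at T12 against 20 and 80 counts at T6 in NMYC cells, and 5 and 0 counts at T12 against 73 and 1015 counts at T6 in parental cells. None of the 9 genes passed the test of the difference by rank aggregation or by edgeR on sums with all libraries in the fit, and DESeq2 on sums called PARK7 higher (adjusted p = 0.0192).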

How the results depend on the processing

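The counts of 0 in the NMYC comparison held under median-of-ratios factors, factors from non-targeting sgRNAs, total counts, both other filters, another alpha and the replicate block; the exceptions were DESeq2, the 4 NMYC libraries alone and 1 left-out library. DESeq2 called 321 sgRNAs lower and 131 higher and 21 sums lower and 1 higher in NMYC cells, 995 and 320 sgRNAs and 109 and 9 sums in parental cells, and 438 and 592 sgRNAs and 7 and 18 sums for the difference. Among named genes its sums called WNT5A, NVL, FOXE1, DNMBP, GNG7, RIOK1, TRPV3, RRAGA, MED7 and DTYMK lower and AADAC higher in NMYC cells (adjusted p from 9.87e-05 to 0.0403), and for the difference GNG7 and WNT5A lower and AADAC, C4orf17, HUS1, PARK7 and RPS20 higher. The 4 NMYC libraries alone gave 1 sgRNA higher. For the difference of the arms, the replicate block gave 0 sgRNAs lower and 0 higher and total counts 0 and 1. The block changed no other call. Leaving out each T6 or T12 library in turn gave 0 to 1 gene lower by rank aggregation in NMYC cells. In parental cells it gave 0 to 2 sgRNAs and 0 to 2 sums lower. For the difference it gave 0 to 3 sgRNAs lower and 0 to 11 higher, 0 to 1 gene lower and 0 to 1 higher by rank aggregation (C15orf61 without the NMYC T12 library of culture 1, C4orf17 without the parental T6 library of culture 2), and 0 to 7 sums higher (without the parental T12 library of culture 2). The cause of these shifts was not tested. Gene sums of MYCN, MYC, AURKA, HOXB13, MAX, RB1, GRHL1, STX2 and AP5Z1 changed sign under 1 to 3 alternatives, and MYCN ran from -3.07 to 2.26. No gene passed a threshold in NMYC cells in the main fit, so no passing value there could change sign. The named genes that DESeq2 called on sums in NMYC cells kept their sign. Counts under 10 limit single values.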
